A study of Mus musculus with 9 samples.

Results

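RNA polymerases I, II and III and the factors that load Pol I and Pol III onto their genes were followed in mouse embryonic stem (ES) cells sorted by Myc level. The 42 genes were chosen by name from the 13499 measured. They comprised every measured gene named Polr1, Polr2 or Polr3 except pseudogenes, the Pol I factors Rrn3 and Taf1a to Taf1d, the TFIIIB genes Brf1, Brf2 and Bdp1, and the TFIIIC genes Gtf3c1 to Gtf3c6. By role, 3 genes encode subunits of Pol I only, 8 of Pol II only and 10 of Pol III only, 2 are shared by Pol I and Pol III, and 5 are shared by all of them. The other genes are 5 Pol I initiation factors, 3 TFIIIB genes and 6 TFIIIC genes. Polr2m, which encodes a Pol II associated protein, is counted by its name among the 8 Pol II subunits.

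The study asked how the transcriptome of ES cells varies with Myc, a transcription factor that promotes growth. C57BL/6 ES cells grown on gelatine in 2xLIF SR-ES medium were sorted in a cytometer on GFP-Myc or EYFP fluorescence. The labels do not say which reporter each sample carried, and they give no further treatment or allele. The populations were named High, Medium and Low, with 3 libraries each, described as biological replicates.

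Libraries held 11114936 to 16755566 recovered reads. Values below are normalised read counts as the authors deposited them, near CPM in size. They are relative to the reads of each library, so RNA amounts per cell were not measured. Myc RNA ran from 101 to 112 in High and from 24.2 to 27.6 in Low libraries, with Medium libraries at 65.5 to 70.0. All 9 ES cell markers checked were measured, with summed levels of 5740 to 6524 in High, against 4657 to 6278 in Low libraries, and 5461 to 6140 in Medium ones. Of these markers, Zfp42, Esrrb, Klf4 and Tdgf1 were higher in High than in Low in limma, and none was lower. Over all genes 13.8% were called higher and 14.6% lower in that comparison. These are bulk samples, so fewer cells of a type and less RNA per cell cannot be told apart.

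Each nuclear polymerase is a multi-subunit enzyme with its own class of genes. Pol I makes the precursor of the large ribosomal RNAs, Pol II makes messenger RNAs and many noncoding RNAs, and Pol III makes transfer RNAs, the smallest ribosomal RNA and other short RNAs. Several small subunits are common to the enzymes, so their RNA level cannot be assigned to one of them. Pol I is brought to the ribosomal DNA promoter by Rrn3 and the Taf1 proteins of selectivity factor SL1, and Pol III by TFIIIC and then TFIIIB. Myc is known to bind TFIIIB and to stimulate both Pol I and Pol III transcription. Pol III comes in alternative forms that hold either Polr3g or its paralog Polr3gl, and Polr3g is known as the form abundant in pluripotent cells.

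Relative to library size, RNA of 4 Pol III subunits was higher in High than in Low cells. So was RNA of the second largest Pol I subunit Polr1b and the Pol I initiation factor Rrn3, while that of Taf1b was lower. The change in Polr3gl, 3.24-fold, was the largest among the 42 genes. No subunit that belongs to Pol II only, and no shared subunit, passed the test in this comparison. In High against Low, 16.7% of the 42 genes were called, below the 28.4% of all genes called. High and Medium cells were not told apart for any of the 42 genes, and only 0.407% of all genes were called there.

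The promoter windows of the Polr3 paralog pair and of Rrn3 are shown here because Polr3gl and Polr3g differed in the size of their change, and because Rrn3 and Polr3gl were the called genes that hold the E-box CACGTG, the sequence Myc and Max are known to prefer. CACGTG reads the same on both strands and is in capitals. Windows are from RefSeq on GRCm38.p6 and run 5′ to 3′ from 250 bases before to 50 bases after the annotated start.
Polr3gl promoter, chr3:96594132-96594431, minus strand: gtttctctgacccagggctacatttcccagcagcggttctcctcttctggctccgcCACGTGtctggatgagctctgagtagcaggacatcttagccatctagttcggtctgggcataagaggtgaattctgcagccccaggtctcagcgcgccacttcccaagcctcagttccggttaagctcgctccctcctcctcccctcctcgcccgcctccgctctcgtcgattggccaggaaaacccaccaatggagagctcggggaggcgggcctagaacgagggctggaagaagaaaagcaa
Polr3g promoter, chr13:81710964-81711263, minus strand: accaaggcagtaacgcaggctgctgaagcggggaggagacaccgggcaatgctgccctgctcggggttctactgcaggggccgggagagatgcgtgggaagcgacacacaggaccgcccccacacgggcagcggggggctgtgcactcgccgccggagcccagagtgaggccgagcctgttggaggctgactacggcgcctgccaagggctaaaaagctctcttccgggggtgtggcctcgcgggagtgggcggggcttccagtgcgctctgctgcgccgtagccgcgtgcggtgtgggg
Rrn3 promoter, chr16:13780449-13780748, plus strand: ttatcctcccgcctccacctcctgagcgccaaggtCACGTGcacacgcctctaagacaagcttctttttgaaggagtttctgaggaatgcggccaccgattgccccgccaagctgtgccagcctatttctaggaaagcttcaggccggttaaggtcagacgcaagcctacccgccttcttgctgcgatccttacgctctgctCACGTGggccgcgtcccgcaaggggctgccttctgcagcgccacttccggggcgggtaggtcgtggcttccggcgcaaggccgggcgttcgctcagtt
The motif began at position -194 from the start site in Polr3gl, and at positions -215 and -48 in Rrn3. The Polr3g window held no CACGTG and 1 copy of the variant CACGCG, at position 35 when both strands were searched. The RefSeq table had a window for 34 of the 42 genes, and 6 of these (17.6%) held CACGTG: Gtf3c6, Polr2h, Polr3c, Polr3e, Polr3gl and Rrn3. CACGTG was present in 7.15% of the 32851 windows of the table and in 11.9% of the 9765 measured genes with a window. Among the genes with a window, 2 of 7 called in High against Low and 4 of 27 not called held it. CACGCG on either strand was found in 12 of the 34 genes (35.3%), against 20.3% of the measured genes with a window and 9.27% of all windows. A match is a description of these windows only.

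In High against Low, 28.4% of all genes tested passed an adjusted p of 0.05 in limma's test with Benjamini-Hochberg adjustment over all genes. Of the 42 genes, 7 passed (16.7%), a share below that background. Higher calls numbered 6, against 13.8% of all genes, and lower calls numbered 1, against 14.6% of all genes. The median log2 fold change was 0.06 over the 42 genes, with 26 above 0. The median over all genes was -0.00025. At an unadjusted p under 0.05, 12 of the 42 genes passed, and 5461 of all 13499 genes did. Treating same-numbered libraries as pairs raised the called genes to 12 higher and 1 lower, with 38.8% of all genes called. The genes gained were Polr1a, Polr2a, Polr3a, Bdp1, Gtf3c4 and Gtf3c6.

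**Figure D1:**
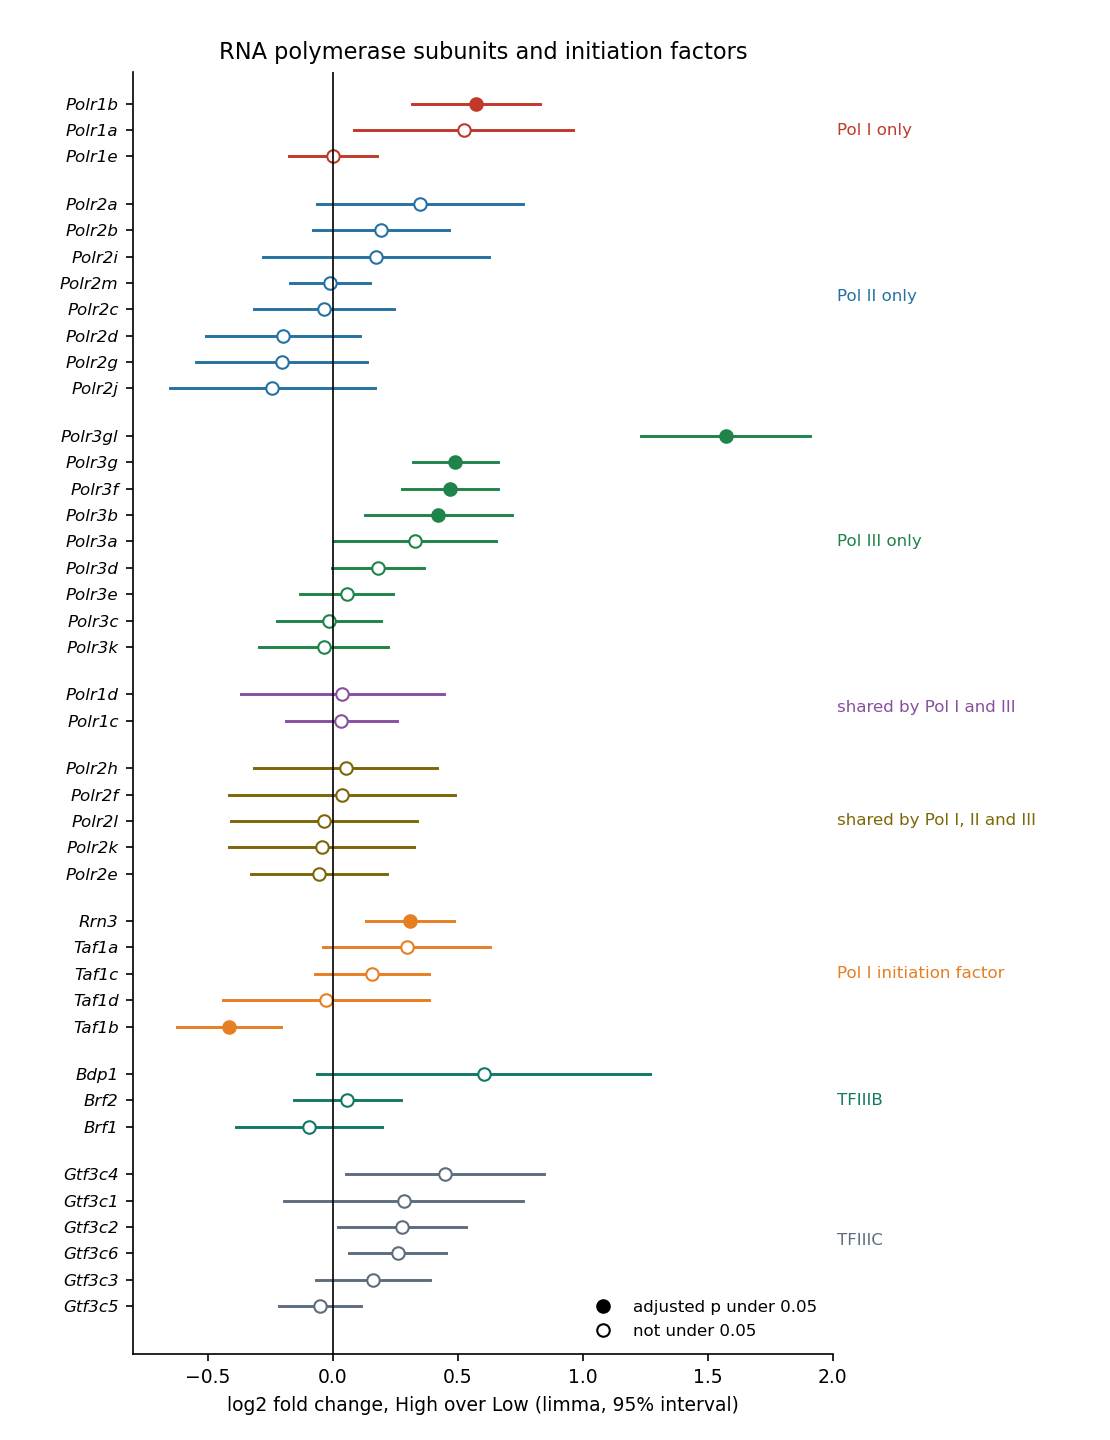
Log2 fold change of High over Low for 41 of the 42 genes, in rows grouped by role, with the 95% interval from limma; filled points passed an adjusted p of 0.05 over all genes. The filled points are Polr1b, 4 Pol III subunits and Rrn3 to the right of 0 and Taf1b to the left, and no filled point lies among the Pol II only or shared subunits.

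By polymerase, 1 of 3 Pol I subunits, 0 of 8 Pol II subunits and 4 of 10 Pol III subunits passed, each call being higher in High. None of the 7 shared subunits passed. Over all genes, 28.4% passed and 13.8% passed as higher, and each class holds few genes. For the Pol II and shared subunits the count was also 0 at an unadjusted p under 0.05, in edgeR and in DESeq2. Median log2 fold changes were 0.52 for Pol I only, -0.02 for Pol II only, 0.25 for Pol III only and 0.03 for the shared subunits. Without Polr3gl the Pol III median was 0.18, with 3 of 9 passing.

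The classes also differed in transcript length, which moved with the spread of the Low libraries described below. The median longest transcript was 3998 nt for Pol I only, 1608 nt for Pol II only, 3042 nt for Pol III only and 1350 nt for the shared subunits, against 3288 nt over all genes. With a correction for transcript length, 2 of 3, 0 of 8 and 6 of 10 subunits of Pol I, Pol II and Pol III were higher in High, and none of the shared ones. Of all genes, 37.8% passed under this correction. With the replicate block added to it, 2 of 8 Pol II subunits, Polr2a and Polr2b, were higher in High. In that setting 5980 of the 13499 genes were called. What part length plays in the difference between the polymerases was not tested beyond this correction.

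Of the Pol III subunits, Polr3gl had the largest change. Polr3gl (ENSMUSG00000028104; GRCm38 chr3:96577872-96594181, minus strand) stood at 20.5, 22.3 and 25.4 in High, against 8.23, 6.89 and 5.97 in Low libraries. Medium libraries had 14.4, 19.7 and 15.1. The populations did not overlap, and the Medium libraries lay between the others. The log2 fold change of High over Low was 1.57 (SE 0.15, 95% interval 1.23 to 1.91; limma, adjusted p = 9.22e-05). Medium exceeded Low by 1.11 on the log2 scale (SE 0.15; limma, adjusted p = 0.0026), a 2.33-fold ratio of means. High over Medium was 0.46 on the log2 scale, with a limma p of 0.0126 before and 0.27 after adjustment. The calls against Low held in 21 of 21 alternative settings for both High and Medium.

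Polr3g (ENSMUSG00000035834; GRCm38 chr13:81673843-81711013, minus strand) is the paralog that takes the same place in the enzyme. Polr3g stood at 107, 99.0 and 101 in High, against 77.9, 69.3 and 70.8 in Low libraries. Medium libraries had 97.9, 91.7 and 91.9. Every High library lay above every Medium one, and every Medium library above every Low one. High exceeded Low by 0.49 on the log2 scale (SE 0.08, 95% interval 0.32 to 0.66; limma, adjusted p = 0.00143). Medium over Low was 0.37 (limma, adjusted p = 0.0166), a call kept in 18 of 21 alternatives, with adjusted p up to 0.0823 without Low replicate 3.

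The balance of the paralogs was read within each library. The ratio of Polr3g to Polr3gl reads was 5.22, 4.44 and 3.97 in High, against 9.46, 10.1 and 11.9 in Low libraries. Medium libraries had 6.81, 4.66 and 6.10. Means were 4.54 ± 0.63 in High, against 10.5 ± 1.25 in Low libraries, and 5.86 ± 1.10 in Medium ones (SD, n = 3 each). High and Low did not overlap, while High and Medium did. Leaving out any library kept the log2 change of Polr3gl above that of Polr3g in High against Low, by 0.99 to 1.18. Per kilobase of longest transcript, Polr3g remained above Polr3gl in mean level in every population, at 33.5 against 15.9 in High, 23.8 against 4.93 in Low and 30.7 against 11.5 in Medium libraries. The ratio was not tested, since each gene has its own test above. No window of the 61 nt read length was shared between the paralogs. Of the Polr3gl windows, 1.75% occurred in other genes, and of the Polr3g windows none did.

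Polr3f, a subunit of the Pol III initiation subcomplex (chr2:144527718-144541995), stood at 47.1, 47.0 and 47.8 in High, against 37.3, 31.4 and 33.4 in Low libraries. Medium libraries had 40.7, 45.1 and 44.3. The populations did not overlap at either step. Its log2 fold change of High over Low was 0.47 (SE 0.09; limma, adjusted p = 0.00352), and Medium over Low was 0.34 (limma, adjusted p = 0.0328). High kept its call in 21 of 21 alternatives and Medium in 11, with adjusted p for Medium up to 0.122 without Low replicate 3. Polr3f, Polr3g and Polr3gl were the 3 of the 42 genes with all High above all Medium above all Low libraries. In all, 4.66% of the genes tested had that order, and none of the 42 genes had the opposite order, which 5.22% of all genes had.

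The catalytic core of Pol III is formed by Polr3a and Polr3b. Polr3b (chr10:84622292-84727178) stood at 101, 82.1 and 84.2 in High, against 78.0, 56.6 and 64.7 in Low libraries. Medium libraries had 99.9, 82.3 and 89.8. High and Medium covered nearly the same range, and both lay above Low. Polr3b was higher in High than in Low by 0.42 on the log2 scale (SE 0.13; limma, adjusted p = 0.0376). That call was lost in 9 of 21 alternatives, with adjusted p up to 0.135 in limma without High replicate 1. Polr3a stood at 60.7, 51.0 and 52.5 in High, against 54.9, 35.7 and 41.3 in Low libraries. Medium libraries had 57.1, 50.0 and 55.6. Low replicate 1 fell within the High range, and the log2 fold change of 0.33 (95% interval 0.00 to 0.65) did not pass (limma, adjusted p = 0.119; 0.0216 with the replicate block).

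Polr3d, a partner of Polr3e in the enzyme, did not pass, with a log2 fold change of 0.18 (95% interval -0.00 to 0.36; limma, adjusted p = 0.131), and its High libraries lay above its Low ones. Of the alternatives, it passed with the length correction, in fits with and without the block. Polr3c, Polr3e and Polr3k did not pass either, with log2 fold changes from -0.04 to 0.05 and limma adjusted p of 0.662 or more. Polr3c lies on the same chromosome as Polr3gl, at chr3:96711490-96727628 on the same strand, and its log2 fold change was -0.02 (95% interval -0.22 to 0.19).

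**Figure D2:**
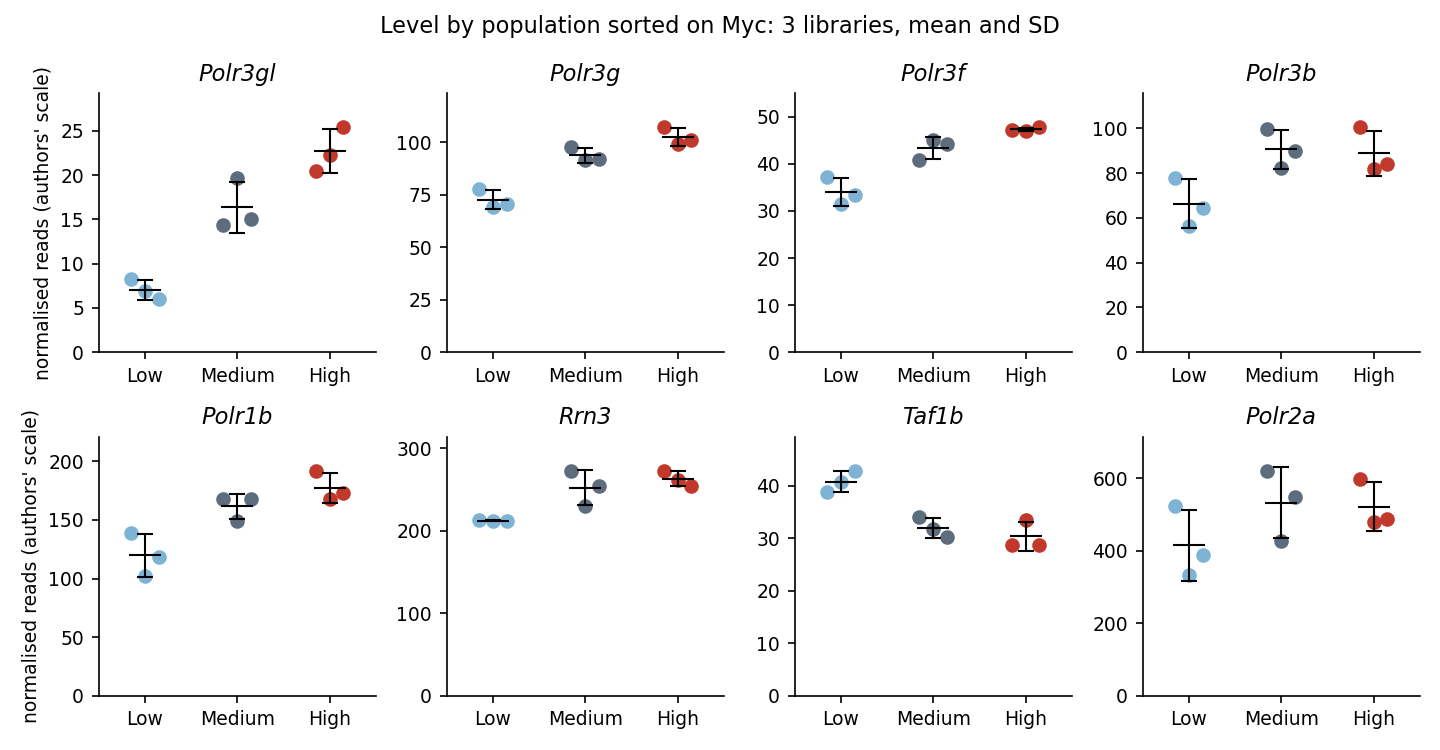
Normalised read counts of 8 genes in the Low, Medium and High libraries, each axis starting at 0; points are libraries, the wide bar is the mean and the whiskers are the SD of 3 libraries. Polr3gl, Polr3g and Polr3f step up at each population, Taf1b is highest in Low, and Low replicate 1 of Polr2a, the leftmost Low point at 523, reaches into the High range.

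Among the Pol I subunits, Polr1a and Polr1b form the catalytic core. Polr1b (chr2:129100995-129126594) stood at 192, 168 and 173 in High, against 139, 102 and 118 in Low libraries. Medium libraries had 168, 149 and 168. All High and all Medium libraries lay above the Low ones, and High overlapped Medium. The log2 fold change of High over Low was 0.57 (SE 0.11; limma, adjusted p = 0.00539). Medium over Low was 0.44 (limma, adjusted p = 0.0373). Its call in Medium against Low held in 12 of 21 alternatives, with adjusted p up to 0.128 without Medium replicate 3, and in High against Low it held in 21.

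Polr1a, the largest Pol I subunit, stood at 255, 218 and 219.6 in High, against 222, 119 and 156 in Low libraries. Medium libraries had 246, 198 and 246. Low replicate 1 overlapped the High range, whereas Low replicates 2 and 3 lay below it. Its log2 fold change of 0.52 (95% interval 0.08 to 0.96) did not pass (limma, adjusted p = 0.0732), and it did with the replicate block (0.0105), with the length correction (0.00941) and without Low replicate 1 (0.00171). Polr1e, a peripheral Pol I subunit, stayed between 28.4 and 31.8 in all 9 libraries, with a log2 fold change of -0.00 (95% interval -0.18 to 0.18). Pol I subunits that the table carries under older names, Twistnb, Znrd1 and Cd3eap, gave 0 of 3 calls, with Cd3eap nearest at 0.46 (limma, adjusted p = 0.053).

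Of the Pol I initiation factors, Rrn3, which links Pol I to the promoter complex, was higher in High. Rrn3 (chr16:13780708-13814839) stood at 273, 262 and 255 in High, against 213, 212 and 212 in Low libraries. Medium libraries had 273, 230.4 and 254. The Low libraries lay below all others and almost coincided. High exceeded Low by 0.31 on the log2 scale (SE 0.08; limma, adjusted p = 0.0175). The call held in 16 of 21 alternatives, and adjusted p reached 0.0804 with quantile normalisation.

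Taf1b, a TFIIB-like subunit of SL1 (chr12:24498359-24558539), went the other way. Taf1b stood at 28.7, 33.5 and 28.8 in High, against 38.8, 40.7 and 42.9 in Low libraries. Medium libraries had 34.1, 31.7 and 30.2. All High and all Medium libraries lay below all Low ones. The log2 fold change of High over Low was -0.42 (SE 0.09; limma, adjusted p = 0.00931), and Medium over Low was -0.34 (limma, adjusted p = 0.0429). The call against Low held in 21 of 21 alternatives for High and in 10 for Medium, where adjusted p reached 0.164 without Low replicate 3. A predicted gene, Gm19196, shared 5.62% of the Taf1b windows of read length. The other SL1 genes, Taf1a, Taf1c and Taf1d, had log2 fold changes of 0.29, 0.16 and -0.03 and did not pass. Taf1d hosts small nucleolar RNAs, and 9.01% of its windows occurred in other genes.

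Among the Pol II subunits, Polr2a and Polr2b form the catalytic core. Polr2a, which carries the C-terminal repeat domain, stood at 599, 479 and 487 in High, against 523, 332 and 389 in Low libraries. Medium libraries had 621, 428 and 549. The populations overlapped through Low replicate 1. The log2 fold change of 0.35 (95% interval -0.06 to 0.76) did not pass (limma, adjusted p = 0.187), and it did with the replicate block (0.0124) and without Low replicate 1 (0.0198). Polr2b, the second largest subunit, stood at 187, 174 and 173 in High, against 179, 134 and 157 in Low libraries. Medium libraries had 227, 179 and 186, which lay above the Low ones, while High overlapped Low. Its log2 fold change was 0.19 (95% interval -0.08 to 0.46; limma, adjusted p = 0.268). It passed in 1 alternative, the replicate block with the length correction (0.0333).

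The smaller Pol II subunits Polr2c, Polr2d, Polr2g, Polr2i and Polr2j had log2 fold changes from -0.24 to 0.17, and Polr2m, which encodes a Pol II associated protein, had -0.01. None passed. Without Low replicate 1 the calls for Pol II changed, in a setting where 43.1% of all genes were called. Polr2d, Polr2g and Polr2j were lower in High, at -0.37, -0.41 and -0.47 on the log2 scale (limma, adjusted p = 0.0095, 0.00452 and 0.0131), and Polr2a was higher at 0.53. With all libraries the 95% interval of Polr2j was -0.65 to 0.17. The longest transcripts of Polr2d, Polr2g and Polr2j are short, at 1015, 890 and 900 nt. With all libraries and the length correction, 0 of the Pol II subunits were lower.

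The shared subunits had estimates near 0. Polr1c and Polr1d, shared by Pol I and Pol III, had log2 fold changes of 0.03 and 0.04. Polr2e, Polr2f, Polr2h, Polr2k and Polr2l, common to all of the enzymes, ran from -0.06 to 0.05. The 95% interval of Polr2f was -0.42 to 0.49. The narrowest interval of the 7, that of Polr1c, was -0.19 to 0.26.

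For TFIIIB, the factor that positions Pol III, none of 3 genes passed in limma, edgeR or DESeq2, and none had an unadjusted p under 0.05. Over all genes 28.4% passed in limma, so 0 of 3 genes says little. Brf1 stood at 17.2, 17.2 and 16.7 in High, against 19.3, 17.5 and 18.1 in Low libraries. Medium libraries had 13.5, 19.3 and 18.9. All High libraries of Brf1 lay below all Low ones, with a log2 fold change of -0.10 (95% interval -0.39 to 0.19). Brf2, which serves promoters of another type, stood at 20.1, 19.9 and 20.9 in High, against 17.8, 21.5 and 19.4 in Low libraries. Medium libraries had 20.3, 18.5 and 19.4, and all populations overlapped. Bdp1 had the largest estimate at 0.60, with a 95% interval of -0.06 to 1.27, and it passed with the replicate block (limma, adjusted p = 0.00772) but not with the length correction (0.115).

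For TFIIIC, which binds inside transfer RNA genes, 0 of 6 genes passed in limma, 3 had an unadjusted p under 0.05, and edgeR and DESeq2 called 1 each. Over all genes 28.4% passed in limma, and 5461 of 13499 had an unadjusted p under 0.05. The median log2 fold change was 0.27. Gtf3c6 came nearest at 0.26 (limma, adjusted p = 0.0503; edgeR, 0.0498), and its High libraries, at 38.9, 45.3 and 40.9, lay above the Low ones at 33.8, 35.6 and 34.5. Medium libraries of Gtf3c6 had 38.7, 41.7 and 37.0. Gtf3c4 was at 0.45 (adjusted p = 0.0859), Gtf3c1 at 0.28, Gtf3c2 at 0.28, Gtf3c3 at 0.16 and Gtf3c5 at -0.05. For Gtf3c2, 36.8% of the windows of read length are shared with the predicted gene Gm29609, so its counts are uncertain. The same holds to a lesser degree for Polr2c (23.6%), Polr2k (19.2%), Polr2l (18.5%), Polr2i (18.4%), Taf1c (14.7%), Polr2j (10.5%) and Polr1d (10.4%), which share windows with overlapping or similar genes.

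In High against Low, all High libraries lay above all Low ones for 9 of the 42 genes, against 20.2% of all genes, and below them for 2 genes, against 21.4% of all genes. The 9 genes were the 6 called higher with Gtf3c2, Gtf3c6 and Polr3d. The 2 genes were Taf1b and Brf1.

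High against Medium gave no call among the 42 genes in limma, edgeR or DESeq2, and 1 gene, Polr3gl, had an unadjusted p under 0.05. Of all genes, 0.407% were called, and 1468 of the 13499 had an unadjusted p under 0.05. High lay above Medium without overlap for 4 genes, Polr3d, Polr3f, Polr3g and Polr3gl, against 9.34% of all genes, and below it for none, against 10.8%. Medium against Low gave 4 higher calls, Polr1b, Polr3f, Polr3g and Polr3gl, against 6.14% of all genes, and 1 lower call, Taf1b, against 5.87% of all genes. Called either way were 12.0% of all genes. Leaving out 1 library at a time gave 1 to 15 higher and 0 to 8 lower calls among the 42 genes, with 1 higher without Medium replicate 1, Medium replicate 3 or Low replicate 3, the top values without Low replicate 1, and no lower call when any other library was left out. This comparison shares the Low libraries with High against Low, so its calls are not separate evidence. With the replicate block 12 genes were higher and 1 lower, with 27.1% of all genes called. Same-numbered Medium and Low libraries did not meet the pairing rule given below, with a correlation of -0.11 for replicate 3. Per gene, the Medium against Low and High against Low log2 values were 0.44 and 0.57 for Polr1b, 0.45 and 0.42 for Polr3b, 0.34 and 0.47 for Polr3f, and 0.25 and 0.31 for Rrn3. No gene passed in limma (0.0% of all genes) or edgeR when Medium was set against the midpoint of High and Low. Of the 42 genes, 2 had an unadjusted p under 0.05 for that contrast, and over all genes 766 did, with 21 called by DESeq2.

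The Low libraries differed among themselves for these genes more than the High libraries did. The median coefficient of variation over the 42 genes was 7.43% in High, against 16.0% in Low libraries, and 8.56% in Medium ones. It was lower in High than in Low for 35 of the 42 genes. The difference between Low replicates 2 and 1 ran with transcript length. Of the 41 genes with a length, 12 had transcripts of 4000 nt or more and a median difference of -0.53 on the log2 scale, whereas 10 had transcripts of 1500 nt or less and a median of 0.64. The corresponding medians over all genes were -0.36 and 0.52. Spearman's rho with length was -0.81 across the 41 genes and -0.64 across all 13412 genes with a length, as a description of 1 pair of libraries. The pattern was not particular to Low. Between replicates 2 and 1, rho across the 41 genes was -0.62 in High and -0.60 in Medium libraries, and -0.45 in each over all genes. Long minus short medians of the 41 genes were -0.35 in High and -0.54 in Medium, against -1.17 in Low. Of the 10 genes with short transcripts, Polr3gl (1427 nt, -0.21) and Taf1a (1472 nt, -0.55) lay below 0 and the others above it.

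**Figure D3:**
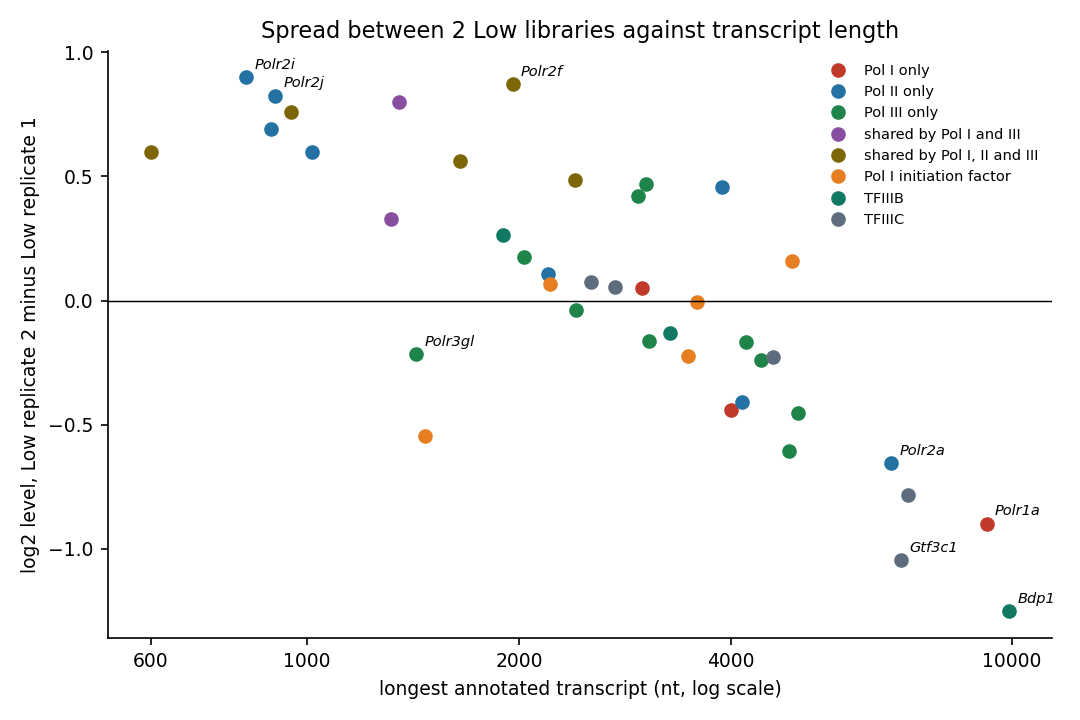
Difference in log2 level between Low replicates 2 and 1, for the 41 genes with a length, against the longest annotated transcript in nt on a log scale; points are genes, coloured by role. Bdp1, Gtf3c1, Polr1a and Polr2a, among the longest, lie below -0.5, and Polr2i, Polr2j and Polr2f lie above 0.5.

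Length also ran with the contrast. Across the 41 genes, rho between length and the log2 fold change was 0.52 for High against Low, 0.67 for Medium against Low and -0.51 for High against Medium. Across all genes the values were 0.20, 0.38 and -0.26. Without Low replicate 1, 14 of the 42 genes were called higher and 4 lower, with 43.1% of all genes called. With Low replicates 1 and 2 both left out, an alternative added after the data were seen, 8 were higher and 1 lower, with 23.3% of all genes called. Low is then a single library, assumed to vary like the High and Medium libraries. Polr3gl, Polr3g, Polr3f, Polr1b and Taf1b kept their calls in both cases, and Rrn3 and Polr3b lost them when both were left out (limma, adjusted p = 0.07 and 0.0503). The source of the length pattern was not tested.

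**Figure D4:**
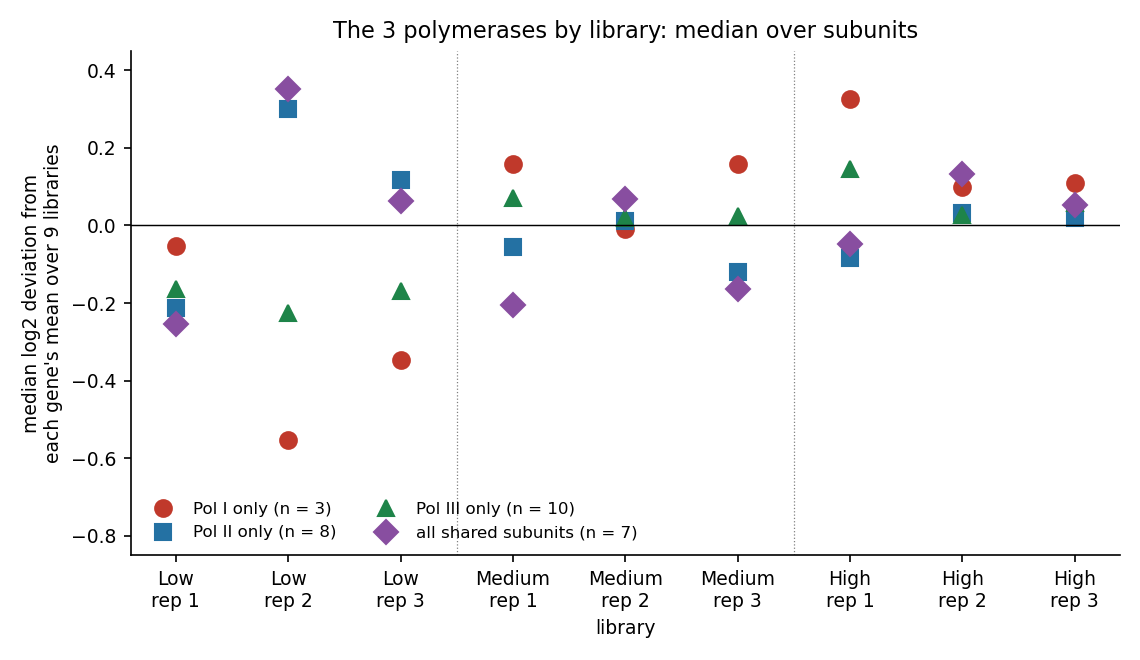
Median, over the subunits of each class, of the log2 deviation of a gene from its mean over 9 libraries, for each Low, Medium and High library. The Pol III median lies below 0 in every Low library (-0.16, -0.23 and -0.17). The Pol II and shared medians change sign between Low replicate 1 (-0.21 and -0.25) and Low replicate 2 (0.30 and 0.35).

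Per library, the class medians showed which differences held inside a population. The Pol III median deviation was 0.14, 0.03 and 0.06 in High, against -0.16, -0.23 and -0.17 in Low libraries. Without Polr3gl it was 0.10, 0.02 and 0.06 in High, against -0.14, -0.10 and -0.06 in Low libraries. The Pol I median was 0.32, 0.10 and 0.11 in High, against -0.05, -0.55 and -0.35 in Low libraries. The Pol II median was -0.08, 0.03 and 0.02 in High, against -0.21, 0.30 and 0.12 in Low libraries, so High lay inside the Low range. These medians are a description over few genes and carry no test.

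Markers of trophoblast, another early lineage, moved with the same contrast. Of 8 markers 5 were analysed here, without Cdx2, Elf5 and Hand1, with summed levels of 17.8 to 21.6 in High, against 46.9 to 63.3 in Low libraries. Medium libraries had 27.3 to 29.7. Of these 5, Gata3, Krt7, Krt8 and Krt18 were lower in High in limma. Over all genes 14.6% were called lower and 13.8% higher in High, which also applies to the markers below. Fibroblast markers, of which 5 of 6 were analysed, summed to 27.8 to 40.8 in High, against 23.5 to 38.6 in Low libraries, and 34.8 to 58.7 in Medium ones. Of these 5, Thy1 was higher in High. Of 6 primitive endoderm markers 2 were analysed, Sox7, which was higher in High, and Dab2, which was lower. The part of these cells in the polymerase values was not tested.

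Levels of different genes were compared per kilobase of the longest transcript. In High libraries the highest mean levels per kilobase were those of Polr2m at 151, Polr1c at 120, Polr1d at 116 and Polr2e at 110. The lowest were Brf1 at 5.20, Bdp1 at 6.54, Polr2l at 7.11 and Taf1a at 8.49. The catalytic subunits of Pol II, Polr2a at 77.4 and Polr2b at 43.0, lay above those of Pol III, Polr3a at 11.3 and Polr3b at 17.9, with Pol I between for Polr1a at 25.1 and above Polr2b for Polr1b at 44.4. In Low libraries these levels were 61.5 and 37.8 for Pol II, 9.09 and 13.3 for Pol III, and 17.9 and 30.0 for Pol I. The longest transcript need not be the one expressed, so these levels depend on the annotation.

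Genes around the called members were also read, and this choice was made after their values were seen. Within 50 kb of the 7 called genes lay 20 measured genes, of which 5 were higher and 1 lower in High, a share near the 28.4% of all genes called. Of the 6 within 50 kb of Polr3gl, 3 were higher. Ankrd34a, whose gene begins 2455 bp beyond the Polr3gl start on the other strand, stood at 17.6, 15.7 and 15.8 in High, against 3.73, 2.15 and 2.70 in Low libraries. Medium libraries had 9.64, 7.46 and 8.75. Its populations did not overlap, and its log2 fold change of High over Low was 2.19 (SE 0.16; limma, adjusted p = 1.73e-05), above that of Polr3gl.

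Lix1l, 6968 bp from Polr3gl, stood at 7.53, 6.85 and 5.87 in High, against 2.25, 1.43 and 3.26 in Low libraries, a log2 fold change of 1.26 (limma, adjusted p = 0.00128). Gm15441, a predicted gene on the far side, had 0.80 (limma, adjusted p = 0.0409), with levels below 5 in every library. Txnip lies within the extent of Gm15441 on the other strand, and how strand was used in counting is not given. Txnip at 0.28 and Rbm8a at -0.03 did not pass. Txnip did pass with the replicate block (limma, adjusted p = 0.0446) and with the length correction (0.0274). No window of 61 nt was shared between Polr3gl and Ankrd34a. Near the other called genes, Pla2g10 by Rrn3 (0.58) and Ttl by Polr1b (0.32) were higher, and Grhl1 by Taf1b (-0.55) was lower, each with a limma adjusted p of 0.04 or less.

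**Figure D5:**
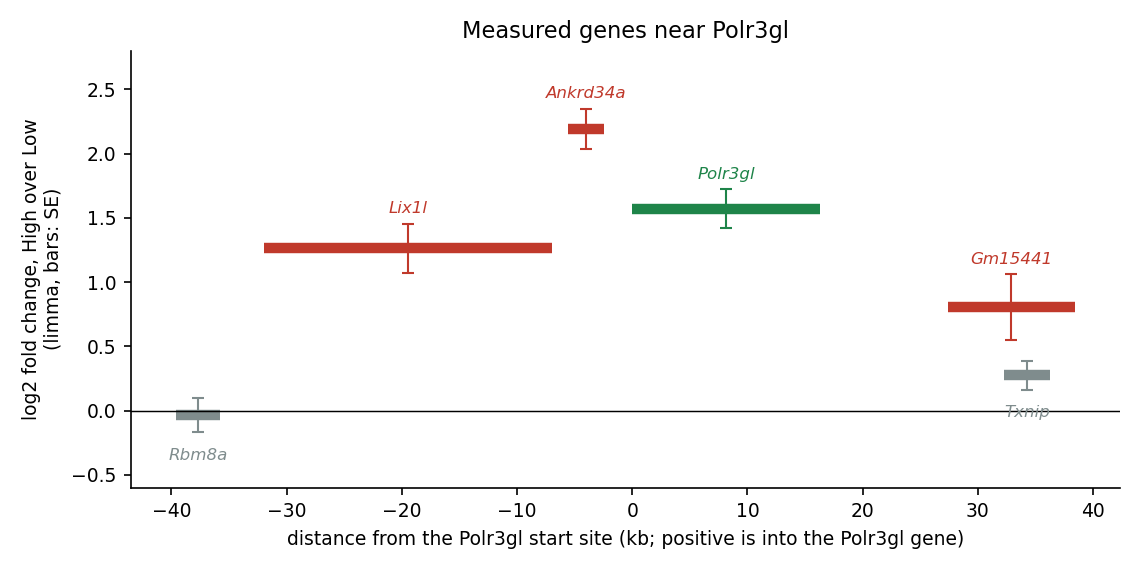
Log2 fold change of High over Low for Polr3gl and 5 of the 6 measured genes within 50 kb, each drawn over its extent in kb from the Polr3gl start site, with the SE from limma; green is Polr3gl, red genes passed an adjusted p of 0.05 and grey genes did not. Ankrd34a (2.19), Polr3gl (1.57) and Lix1l (1.26) are adjacent. Gm15441 (0.80) is also red, and Rbm8a (-0.03) and Txnip (0.28) are grey.

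Other genes of the same pathways were counted from lists, beside 13.8% of all genes called higher and 14.6% called lower in High against Low. Of 7 Pol I regulators, 3 were higher in High, Ubtf (0.37), Nolc1 (0.35) and Tcof1 (0.79), and the topoisomerase Top1 was lower (-0.46). Ubtf is the factor that shapes active ribosomal DNA, and Nolc1 and Tcof1 are nucleolar proteins that support Pol I. Tcof1 stood at 362, 350 and 336 in High, against 281, 151 and 193 in Low libraries. Medium libraries had 333, 291 and 324.

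Of 9 Pol III regulators, 1 was higher, Snapc3 (0.48), a subunit of the complex that activates small nuclear RNA genes, and none was lower. Maf1, the repressor of Pol III, did not pass (-0.12; limma, adjusted p = 0.406). Crcp, a Pol III subunit under its older name, was at 0.02. Of 33 general transcription factors of Pol II, 5 were higher, Gtf2f1 (0.31), Ercc2 (0.50), Taf3 (0.50), Taf4b (0.26) and Taf13 (0.48), and 0 lower, with a median of -0.01, so the higher share was near the 13.8% of all genes. Of 12 genes listed for polymerase assembly, Rpap1 (0.51) and Ruvbl2 (0.33) were higher and Gpn3 (-0.30) was lower. The list includes Urb1 and Pdcd2, whose part in polymerase assembly was not checked.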

How the data were processed

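The 9 libraries were made from total RNA of sorted mouse ES cells and read as single ends of 61 nt, per the labels' protocols. The authors deposited 1 table with a normalised signal for each of 13499 genes in each library. Per the submitters' processing notes, the tools were cutadapt, Picard, RSEM 1.17 and limma, whose roles the notes do not state. The build and annotation behind the table, and how strand was used, are not given in the sources at hand. Each deposited signal was a whole multiple of the value of 1 read (100% of values, within 0.001 read), and 11114936 to 16755566 reads per library were recovered in this way. The 85 genes without a name, with 1.71% to 2.53% of the signal, stayed in the tests.

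Groups came from the labels. The 42 members and all lists were chosen with earlier results of these data known. Populations were compared on log2 of signal plus 1 CPM with limma 3.58.1 under R 4.3.3, letting the prior variance follow the mean level. Genes at 1 CPM or more in 3 libraries were tested, with population as the only term and all 9 libraries sharing the spread. All 13499 genes and all 42 members passed that filter. P-values were adjusted over all genes by the Benjamini-Hochberg method. Log2 fold changes on this scale understate the change of low genes, and folds are ratios of mean signal. Values in every library are given for the catalytic subunits, the members past the threshold, the Polr3g and Polr3gl pair, and Brf1 and Brf2. The values of 1 Pol III subunit, which stays in the counts and medians, and of 1 gene near Polr3gl are not reported here. Nothing beyond the word biological says that replicates came from separate cultures, so p-values measure the spread between these samples, which may be technical.

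Same-numbered High and Low libraries deviated together from their population means, with correlations of 0.53, 0.26 and 0.18, each over the 0.1 set for pairing. Other-numbered pairs reached 0.31, so the pairing rests on the rule and not on the labels. High with Medium (0.35, 0.17 and -0.04) and Medium with Low (0.24, 0.43 and -0.11) did not meet it. The alternatives were other pseudocounts, filters and scalings, edgeR 4.0.16 and DESeq2 1.42.0 on recovered counts, the replicate block, a correction for transcript length and leaving out libraries. Lengths and coordinates are from GENCODE M21 on GRCm38, matched for 13412 genes (99.36%) and 41 members. Promoters are from RefSeq on GRCm38.p6. Scripts were tested on simulated data.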

Additional observations from a re-analysis of the deposited data

How the results depend on the processing

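No call among the 42 genes changed direction under any alternative run, and over single genes 3395 gene, comparison and setting combinations kept their side of the threshold, 84 gained a call and 47 lost it. High against Low called 5980 genes with the replicate block and the length correction together, and members higher numbered 12 with the block, 11 with the length correction and 15 with both. High against Medium called 260 genes in DESeq2, 203 with the block, 301 with the length correction, 484 with both and 180 without Low replicates 1 and 2. Medium against Low called 3656 genes with the block, 2666 with the length correction and 3775 with both. Members higher there numbered 12, 9 and 12 in the same order, 2 after rescaling to equal totals and 7 without Low replicates 1 and 2, and members lower numbered 0 with the length correction and 0 without those libraries. Setting Medium against the midpoint of the others called 21 genes in DESeq2, 1 with the block, 2 with the length correction and 2 with both. Leaving out 1 library at a time gave 2266 to 5757 genes for High against Low, 11 to 208 for High against Medium, 497 to 5060 for Medium against Low and 0 to 70 for the midpoint. Members ranged from 4 to 14 higher and 1 to 4 lower in High against Low, and from 1 to 15 higher and 0 to 8 lower in Medium against Low, with the top values without Low replicate 1. The causes were not tested. The lowest value of any member, 5.97 for Polr3gl in Low replicate 3, lies above the pseudocount of 1 CPM.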

Other observations

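Factors that act on Pol II after initiation were counted beside its subunits. Of 24 pausing and elongation factors, 4 were higher in High than in Low and 1 was lower in limma. Aff1, a scaffold of the super elongation complex, stood at 84.6, 78.7 and 69.2 in High, against 45.6, 24.4 and 31.1 in Low libraries. Medium libraries of Aff1 had 79.5, 65.4 and 85.2. Its log2 fold change was 1.22 (limma, adjusted p = 0.00172), with High and Medium overlapping and Low below both. Aff4 (0.70), Ell2 (0.47) and Supt6 (0.59) were the other factors higher in High. Tcea1, which helps stalled Pol II resume, was lower in High at -0.38, with 257, 272 and 272 in High, against 342, 349 and 354 in Low libraries. Medium libraries of Tcea1 had 322, 298 and 285. The share of 5 in 24 is below the 28.4% of all genes called.

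Of 4 genes of mitochondrial transcription, the mitochondrial RNA polymerase Polrmt was higher in High, with 68.9, 66.2 and 69.4 in High, against 56.6, 45.9 and 52.3 in Low libraries. Its log2 fold change was 0.40 (limma, adjusted p = 0.00798). Tfb1m, a methyltransferase of mitochondrial ribosomal RNA, was lower at -0.40 (limma, adjusted p = 0.033), and Tfam and Tfb2m did not pass.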
